A study of Homo sapiens with 6 samples.

Results

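On the long arm of chromosome 15, 34 genes lying around SPRED1, THBS1 and BUB1B were followed, out of 19777 measured genes. They run in RefSeq gene order (assembly GRCh38.p14) from SCG5 to SPINT1. They were chosen by the difference in signal between 2 ovarian carcinoma lines on the same 6 arrays, so these differences are given below as a description. Where a member is said to be called, it passed the threshold of the limma fit across all genes, which is no independent test of a gene chosen this way. All 34 were measured, by 63 probe sets annotated to a single gene. Of the 34, 27 had a main probe set, the one with the highest mean, above the median log2 signal of 7.888, and 7 did not. These are called bright and dim here.

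The study set a phosphomimetic form of PEA-15, a small adaptor protein that binds ERK and FADD, against a form that cannot be phosphorylated at the same serine. Both lines derive from SKOV3.ip1, a human ovarian carcinoma line, and both carry a stably transfected vector. The S116D line (3 arrays) expresses PEA-15 with aspartic acid in place of Ser116. The S116A line (3 arrays) expresses PEA-15 with alanine there. Both were grown in DMEM/F12 with serum and antibiotics. For S116D the sample characteristics also name Ser104, and the treatment text writes Ser16, so the number of substitutions is not settled. Which promoter drives the vector, and whether a line is a single clone or a pool, is stated nowhere in the labels. Neither untransfected nor empty-vector cells were analysed here. Nothing in the labels says that the 3 arrays of a line came from separate cultures, so the spread between them may be technical.

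Total RNA was read on Affymetrix HG-U133 Plus arrays. The 6 array medians lay between 7.862 and 7.893 on the log2 scale. Of 9 carcinoma markers, ERBB2, EPCAM, KRT7, KRT8, KRT18 and PAX8 averaged between 12.24 and 13.93 in each line, whereas MSLN and MUC16 lay below the median signal. EPCAM, KRT7, KRT8 and KRT18 were lower in S116D. Of 10 markers of leukocytes, fibroblasts and endothelium, 5 lay below the median signal (PTPRC, CD14, PDGFRB, LUM and CDH5). The other 5 lay above it, with means over all arrays of 10.12 for COL1A1, 9.545 for CD3E, 9.521 for PECAM1, 8.461 for COL1A2 and 8.02 for VWF. By limma none of the 10 passed an adjusted p of 0.05, and 1 had an unadjusted p under 0.05.

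Neighbouring genes of a chromosome mostly encode unrelated proteins. They share the DNA segment, and sometimes a promoter region when they start back to back and are read outwards. The stretch described here holds genes active in nearly every cell, such as parts of the splicing and protein-targeting machinery, beside genes known chiefly from muscle, brain or testis, such as ACTC1, RYR3, CHRM5 and FSIP1.

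Promoter sequences are shown for 6 members, because the stretch moved mostly together while some of its genes did not. NOP10, SPRED1, THBS1 and BUB1B read higher in S116D. ACTC1 and RYR3 did not, but their means over all arrays were 8.162 and 5.815, where signal over background could not be judged. Each sequence is RefSeq's, from 250 bases before the gene start to 50 after it, 5′ to 3′ on the strand of the gene. Capitals mark matches to any of 7 motifs searched on both strands, namely the GC box GGGCGG, the CCAAT box CCAAT, the TATA box TATAAA, the ETS motif CCGGAAG, the NRF1 motif (GCGC and TGCGC with any base between them), the E-box CACGTG and the AP-1 motif TGANTCA. No match of one motif overlapped a match of another in these 6 sequences, though in THBS1 a GC box and a CCAAT box adjoin. NOP10 lies at chr15:34343087-34343386 (minus strand), SPRED1 at chr15:38252586-38252885 (plus), THBS1 at chr15:39580829-39581128 (plus), BUB1B at chr15:40160819-40161118 (plus), ACTC1 at chr15:34795500-34795799 (minus) and RYR3 at chr15:33310717-33311016 (plus), all in GRCh38.p14.
NOP10: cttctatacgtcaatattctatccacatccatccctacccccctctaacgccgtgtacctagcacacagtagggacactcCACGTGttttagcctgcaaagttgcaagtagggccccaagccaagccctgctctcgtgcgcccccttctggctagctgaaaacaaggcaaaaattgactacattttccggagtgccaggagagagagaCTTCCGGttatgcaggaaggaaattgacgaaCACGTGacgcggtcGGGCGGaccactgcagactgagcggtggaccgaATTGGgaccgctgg
SPRED1: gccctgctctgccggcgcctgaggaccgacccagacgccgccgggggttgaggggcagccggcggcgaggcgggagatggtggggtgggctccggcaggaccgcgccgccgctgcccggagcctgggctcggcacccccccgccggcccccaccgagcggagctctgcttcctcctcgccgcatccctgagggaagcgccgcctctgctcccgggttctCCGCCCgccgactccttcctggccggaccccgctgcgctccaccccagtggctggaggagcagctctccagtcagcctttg
THBS1: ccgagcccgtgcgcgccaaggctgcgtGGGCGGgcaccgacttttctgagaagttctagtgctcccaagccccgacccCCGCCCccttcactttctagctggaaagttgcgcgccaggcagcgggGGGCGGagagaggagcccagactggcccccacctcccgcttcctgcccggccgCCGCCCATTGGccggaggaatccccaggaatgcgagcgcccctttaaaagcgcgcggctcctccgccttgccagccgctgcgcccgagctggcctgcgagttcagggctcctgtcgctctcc
BUB1B: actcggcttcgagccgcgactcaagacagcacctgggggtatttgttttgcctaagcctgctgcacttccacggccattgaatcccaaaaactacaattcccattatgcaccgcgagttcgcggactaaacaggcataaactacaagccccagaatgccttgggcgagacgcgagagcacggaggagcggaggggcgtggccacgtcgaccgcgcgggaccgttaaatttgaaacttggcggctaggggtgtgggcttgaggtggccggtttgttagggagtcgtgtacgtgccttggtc
ACTC1: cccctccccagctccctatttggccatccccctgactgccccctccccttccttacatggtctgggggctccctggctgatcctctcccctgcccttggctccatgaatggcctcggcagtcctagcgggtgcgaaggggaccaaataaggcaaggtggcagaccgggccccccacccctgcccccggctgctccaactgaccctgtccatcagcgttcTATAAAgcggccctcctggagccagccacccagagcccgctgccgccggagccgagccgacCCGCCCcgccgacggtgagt
RYR3: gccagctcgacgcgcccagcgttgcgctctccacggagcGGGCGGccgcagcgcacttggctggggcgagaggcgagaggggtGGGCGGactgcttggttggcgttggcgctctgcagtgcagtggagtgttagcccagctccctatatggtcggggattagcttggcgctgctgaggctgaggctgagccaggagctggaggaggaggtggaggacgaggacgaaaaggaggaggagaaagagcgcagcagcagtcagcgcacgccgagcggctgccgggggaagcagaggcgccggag

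The promoters of the 4 members that read higher share no one motif. THBS1 had 4 GC boxes and a CCAAT box, NOP10 had a GC box, a CCAAT box, an ETS motif and 2 E-boxes, SPRED1 had a single GC box, and BUB1B held none of the 7 motifs. ACTC1 was the only one of the 6 with a TATA box, at 31 bases before its start (position -31). Over the 32 members with a promoter in the table, a GC box stood in 71.9%, a CCAAT box in 40.6%, a TATA box in 9.38%, an ETS motif in 18.8%, an NRF1 motif in 6.25%, an E-box in 6.25% and an AP-1 motif in 9.38%. In all 27305 promoters the shares were 44.6%, 35.7%, 12.0%, 10.7%, 6.28%, 7.43% and 7.76% in the same order. Bright genes of the whole array (10781 with a promoter) had a GC box in 67.3%, and the 25 bright members with a promoter in 76.0%. The median GC content was 64.8% in the members and 63% in all measured genes. In the bright members it was 65.0%, and in all measured bright genes 65.0%. These are counts of letters and were not tested.

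Most members read higher in S116D, and the bright ones by more than the dim ones. Of the 34, 30 had a positive difference (S116D minus S116A, log2 signal) and 4 a negative one. The median difference was 0.36, with quartiles of 0.16 and 0.64, against a median of 0.01 over all 19777 genes. Bright members had a median of 0.42 and a range from -0.17 (ACTC1) to 1.06 (MEIS2), against 0.00 over 13419 bright genes. Dim members had a median of 0.14, against 0.01 over 6358 dim genes.

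Read with limma across all genes, 18 of the 34 were called higher in S116D and 0 lower. Over the whole array 6.79% of genes were called higher and 5.39% lower (12.2% in either direction). Among bright members 15 of 27 were called, where the share of all bright genes called higher was 8.79% and lower 7.36% (16.2% together). Among dim members 3 of 7 were called (RASGRP1, SCG5 and FSIP1), where the shares of all dim genes were 2.55% higher and 1.21% lower (3.76% together). Because the members come from this contrast, nothing is read from these shares. Every S116D array lay above every S116A array for 22 members (15.3% of all genes, 18.4% of bright and 8.71% of dim ones), and below for ACTC1 alone. The other 11 overlapped.

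**Figure D1:**
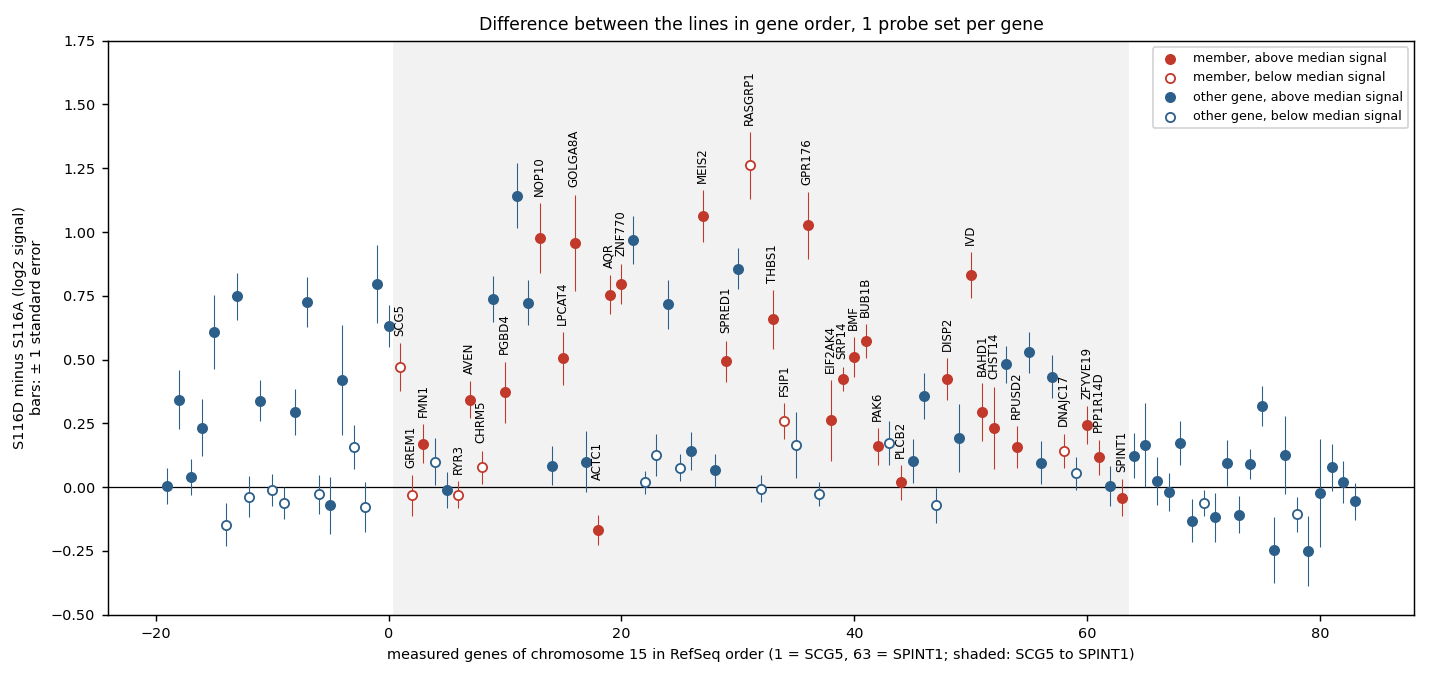
Difference between the lines (S116D minus S116A, log2 signal, bars ± 1 limma standard error) for the main probe set of each measured gene of chromosome 15 from 20 genes before SCG5 to 20 genes after SPINT1, in RefSeq order. Red points are members and blue points other genes, filled above and open below the median signal. Filled points between NOP10 and BUB1B lie mostly between 0.4 and 1.1, while open points and the genes after SPINT1 lie mostly near 0.

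In gene order the differences were not even. The pieces described next were drawn after the values were seen, hold all bright genes between their ends (members or not), and were not tested. Between the pieces lie 4 bright genes that belong to none, EMC7 (0.74) before PGBD4, and KNL1 (0.53), RMDN3 (0.10) and GCHFR (0.43) before DNAJC17. From SCG5 to CHRM5 the 3 bright genes had a median of 0.17. From PGBD4 to ACTC1 the median of 9 was 0.50, and from AQR to RASGRP1 it was 0.75 over 9, the highest of the 6 pieces. From THBS1 to BUB1B the median of 6 was 0.54, from PAK6 to RPUSD2 that of 11 was 0.23, and from DNAJC17 to SPINT1 that of 4 was 0.06.

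The same differences can be given array by array, relative to each gene's S116A mean, which places the S116A arrays near 0 by construction. On this scale the 27 bright members had a median of 0.478, 0.415 and 0.425 on S116D arrays 1, 2 and 3, against 0.0139, 0.0208 and 0.00257 on S116A arrays 1, 2 and 3. On those S116D arrays 25, 25 and 26 of the 27 lay above the S116A mean. A member's spread between arrays of a line was similar to that of other bright genes, with a median SD of 0.0817 against 0.105. The arrays were also split by the sign of the second principal component, which gives 2 sets by construction. Both replicate 1 arrays fell in the same set and both replicate 3 arrays in the other, while the replicate 2 arrays were divided. S116D 2, S116D 3 and S116A 3 gave a bright-member median of 0.489, and S116D 1, S116A 1 and S116A 2 one of 0.414. The bright genes of the whole array had -0.008 and 0.0134 in these sets.

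**Figure D2:**
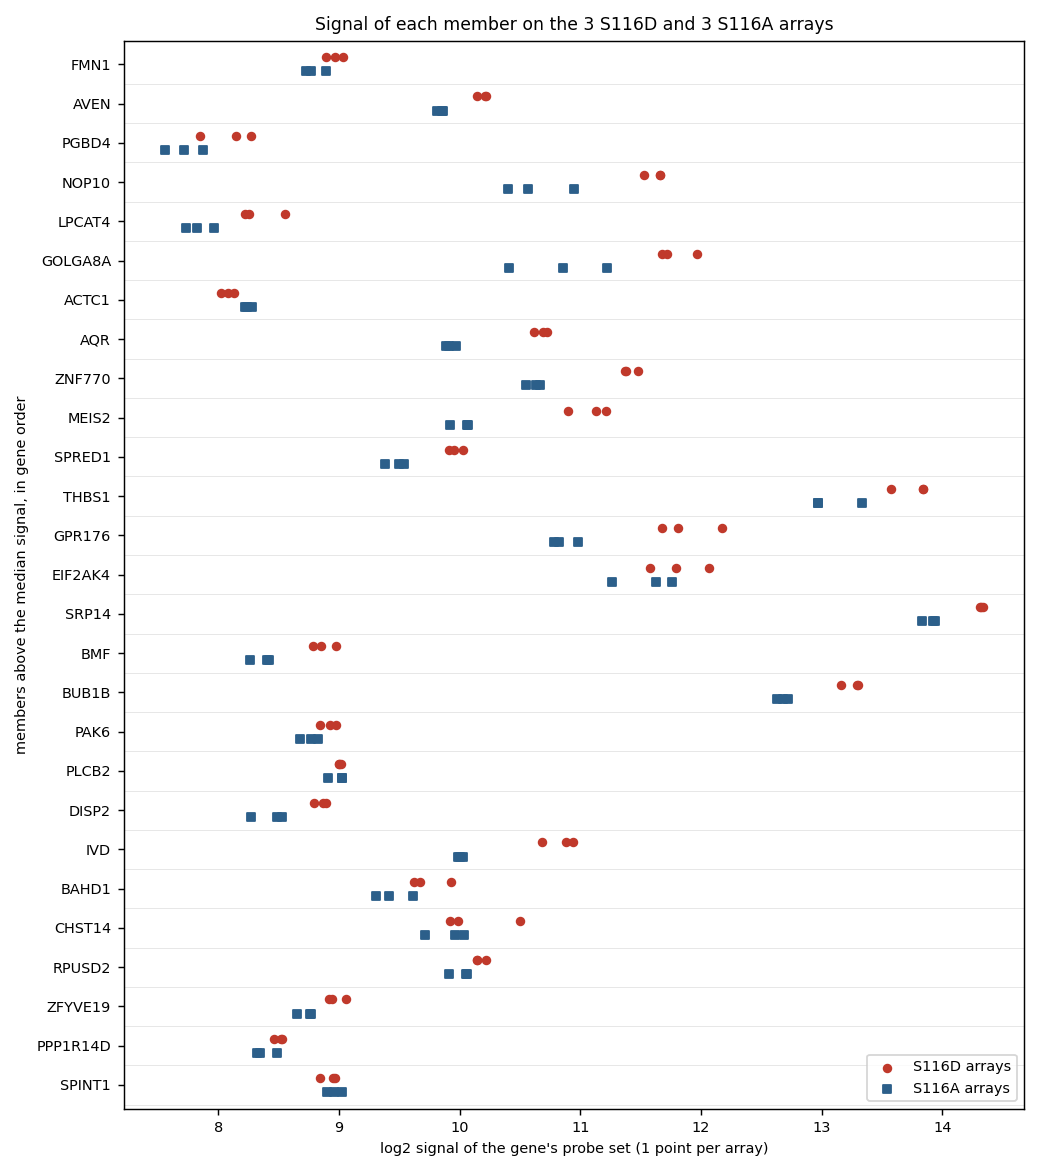
Log2 signal of the 27 bright members on each array, in gene order from the top, with S116D arrays as red circles above S116A arrays as blue squares. The lines are apart for most genes from NOP10 to BUB1B and stand in the other order for ACTC1. They overlap for FMN1, PGBD4, EIF2AK4, PLCB2, CHST14, PPP1R14D and SPINT1.

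Genes of the RNA and protein machinery were the largest group of members. Of 8, 4 were called higher in S116D and 0 lower, with a median difference of 0.36. Over all genes 6.79% were called higher and 5.39% lower, and of bright genes 8.79% and 7.36%. As the members were chosen on this contrast, the counts called in this and the following groups say nothing about a role. NOP10, a core protein of the box H/ACA particles that guide pseudouridylation and belong to telomerase, read 11.53, 11.66 and 11.66 in S116D, against 10.40, 10.57 and 10.95 in S116A. The lines did not overlap, and the difference was 0.98 ± 0.14 (SE, n = 3 each), or 1.97-fold. AQR, a helicase of the spliceosome, read 10.62, 10.72 and 10.69 in S116D, against 9.92, 9.89 and 9.97 in S116A, a difference of 0.75 ± 0.08 (SE). Its second bright probe set differed by 0.62. ZNF770, a zinc finger protein, read 11.37, 11.38 and 11.48 in S116D, against 10.63, 10.55 and 10.67 in S116A, a difference of 0.80 ± 0.08 (SE). Arrays of a line stood close together for both genes and well apart from the other line.

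SRP14, a subunit of the signal recognition particle that brings nascent proteins to the endoplasmic reticulum, had the brightest probe set of all members. It read 14.31, 14.34 and 14.32 in S116D, against 13.83, 13.92 and 13.94 in S116A. The difference of 0.42 ± 0.05 (SE) was the smallest of the 4 called in this group. EIF2AK4, the kinase GCN2 that senses uncharged tRNA, read 12.07, 11.58 and 11.79 in S116D, against 11.76, 11.63 and 11.26 in S116A. Its lines overlapped, and its dim probe set had the opposite sign (-0.27).

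The other 3 of this group were not called either. BAHD1, a protein of heterochromatin, read 9.93, 9.62 and 9.67 in S116D, against 9.61, 9.42 and 9.31 in S116A, with no overlap and a difference of 0.29. RPUSD2, which holds a pseudouridine synthase domain, read 10.22, 10.14 and 10.14 in S116D, against 10.06, 9.91 and 10.05 in S116A, a difference of 0.16 and no overlap. The dim DNAJC17, a J-domain protein linked to splicing, read 7.671, 7.607 and 7.503 in S116D, against 7.531, 7.42 and 7.403 in S116A, and overlapped.

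Among signalling genes 3 of 6 were called higher and 0 lower. MEIS2, a homeodomain transcription factor, had the largest difference of the bright members. It read 11.21, 10.90 and 11.13 in S116D, against 10.07, 10.06 and 9.92 in S116A, a difference of 1.06 ± 0.10 (SE, n = 3 each), or 2.09-fold. SPRED1, which restrains the step from Ras to RAF and ERK, read 9.91, 10.03 and 9.95 in S116D, against 9.50, 9.54 and 9.38 in S116A on its main probe set. On its second bright probe set it read 9.44, 9.50 and 9.49 in S116D, against 8.49, 8.63 and 8.53 in S116A. Neither probe set overlapped, but the sizes differed, at 0.49 and 0.93.

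RASGRP1 had the largest difference of all 34 members although it is dim. This exchange factor, which loads Ras with GTP in response to calcium and diacylglycerol, read 7.35, 6.92 and 6.98 in S116D, against 6.05, 5.74 and 5.67 in S116A. The difference was 1.26 ± 0.13 (SE), and both lines stayed below the median signal, so its fold is not exact. SPRED1 restrains Ras signalling and RASGRP1 turns it on, and both read higher.

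PAK6, a p21-activated kinase, read 8.98, 8.92 and 8.85 in S116D, against 8.77, 8.68 and 8.82 in S116A, a difference of 0.16. PLCB2, a phospholipase C found mainly in blood cells, read 9.0, 9.01 and 9.0 in S116D, against 8.91, 9.02 and 9.03 in S116A, a difference of 0.02. PPP1R14D, an inhibitor of protein phosphatase, read 8.46, 8.52 and 8.53 in S116D, against 8.35, 8.49 and 8.32 in S116A, a difference of 0.12. None of these 3 was called, and the lines overlapped for PLCB2 and PPP1R14D.

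Of 7 secreted, matrix and surface genes, 4 were called higher and 0 lower. THBS1, which encodes the matrix glycoprotein thrombospondin, had 7 probe sets and all were positive, from 0.26 to 1.23. Its brightest read 13.57, 13.84 and 13.84 in S116D, against 12.97, 12.97 and 13.33 in S116A, a difference of 0.66 ± 0.11 (SE, n = 3 each). Its next brightest read 12.85, 13.11 and 13.18 in S116D, against 11.86, 11.81 and 12.15 in S116A, a difference of 1.10. S116A 3 was the highest array of its line on both. The lines did not overlap on any of the 7 probe sets, and 5 were called in the fit over all probe sets.

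GPR176, an orphan G protein-coupled receptor, read 12.17, 11.68 and 11.81 in S116D, against 10.98, 10.78 and 10.82 in S116A, a difference of 1.03 ± 0.13 (SE) with S116D 1 the highest. DISP2, of the Dispatched family that releases Hedgehog ligands, read 8.87, 8.79 and 8.89 in S116D, against 8.49, 8.53 and 8.27 in S116A, a difference of 0.42. SCG5, a chaperone of a prohormone convertase, was dim and read 6.75, 6.62 and 6.90 in S116D, against 6.17, 6.23 and 6.46 in S116A, a difference of 0.47. All 3 were without overlap.

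The remaining genes of this group stayed near 0. SPINT1, a protease inhibitor of epithelial cells that blocks matriptase and the activator of hepatocyte growth factor, read 8.84, 8.96 and 8.97 in S116D, against 8.96, 8.90 and 9.02 in S116A, a difference of -0.04. GREM1, a secreted antagonist of bone morphogenetic proteins, differed by -0.03 and -0.05 on its probe sets, both dim, and the dim CHRM5, a muscarinic receptor, by 0.08. Their lines overlapped.

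Genes of cell division and survival all had positive differences, and 3 of 4 were called. BUB1B, the spindle checkpoint protein BubR1, read 13.29, 13.16 and 13.30 in S116D, against 12.72, 12.63 and 12.68 in S116A, a difference of 0.57 ± 0.07 (SE, n = 3 each), or 1.49-fold. BMF, a BH3-only protein that promotes apoptosis, read 8.97, 8.85 and 8.79 in S116D, against 8.40, 8.42 and 8.26 in S116A, a difference of 0.51 ± 0.08 (SE). AVEN, an inhibitor of apoptosis, read 10.21, 10.14 and 10.22 in S116D, against 9.82, 9.87 and 9.85 in S116A, a difference of 0.34 ± 0.07 (SE). A promoter and an inhibitor of cell death thus both read higher. ZFYVE19, a regulator of abscission at the end of division, read 8.91, 8.95 and 9.06 in S116D, against 8.65, 8.76 and 8.77 in S116A, a difference of 0.24 that was not called although the lines did not overlap.

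Of 4 genes of metabolism and the Golgi, 3 were called higher. IVD, the mitochondrial dehydrogenase of isovaleryl-CoA in leucine breakdown, read 10.68, 10.88 and 10.94 in S116D, against 10.03, 10.00 and 9.98 in S116A, a difference of 0.83 ± 0.09 (SE, n = 3 each). Its other bright probe sets differed by 0.47 and 0.26. LPCAT4, an acyltransferase of phospholipids, read 8.56, 8.26 and 8.22 in S116D, against 7.82, 7.97 and 7.74 in S116A, a difference of 0.50. GOLGA8A, a golgin, read 11.97, 11.68 and 11.72 in S116D, against 10.41, 11.22 and 10.86 in S116A, a difference of 0.96 with a wide spread in S116A. Its family has near-identical copies on chromosome 15 whose RNA can bind the same probes, so this value is uncertain for the single gene. CHST14, a sulphotransferase of dermatan sulphate, read 10.50, 9.99 and 9.92 in S116D, against 9.96, 10.04 and 9.71 in S116A. Its lines overlapped, and the difference of 0.23 became 0.05 without S116D 1.

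Muscle, cytoskeleton and sperm genes, with a gene derived from a transposon, formed the group with the smallest median, 0.17. ACTC1, the actin of heart muscle, read 8.02, 8.13 and 8.09 in S116D, against 8.28, 8.22 and 8.24 in S116A. It was the only member with every S116D array below every S116A array, by -0.17 ± 0.06 (SE, n = 3 each), and it was not called. RYR3, a calcium release channel, was dim and read 5.87, 5.81 and 5.72 in S116D, against 5.86, 5.80 and 5.82 in S116A, with overlap. FMN1, a formin that builds actin filaments, read 8.89, 8.97 and 9.04 in S116D, against 8.77, 8.72 and 8.89 in S116A, a difference of 0.17. A dim probe set of FMN1 differed by 0.41 and was called higher in the fit over all probe sets.

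PGBD4, of the piggyBac family, read 7.85, 8.27 and 8.14 in S116D, against 7.56, 7.87 and 7.72 in S116A, with overlap and a difference of 0.37. FSIP1, a protein of the sperm tail sheath, was the only gene of this group called on its main probe set. It was dim and read 5.82, 5.89 and 6.07 in S116D, against 5.73, 5.64 and 5.64 in S116A, a difference of 0.26 that was called when 1 probe set per gene was fitted but not in the fit over all probe sets.

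The signal level went with the size of the difference among the member probe sets. The 36 bright ones had a median of 0.46, 34 of them were positive and 22 were called higher. The 27 dim ones had a median of 0.14, with 22 positive and 7 called. Of all probe sets annotated to 1 gene, 5.09% were called higher, at 1633 of 22949 bright and 459 of 18142 dim ones. Bright probe sets were thus called more often over the whole array too. Of 14 members with more than 1 probe set, 10 had positive differences on all of them. The exceptions were GREM1, EIF2AK4, PLCB2 and SPINT1.

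**Figure D3:**
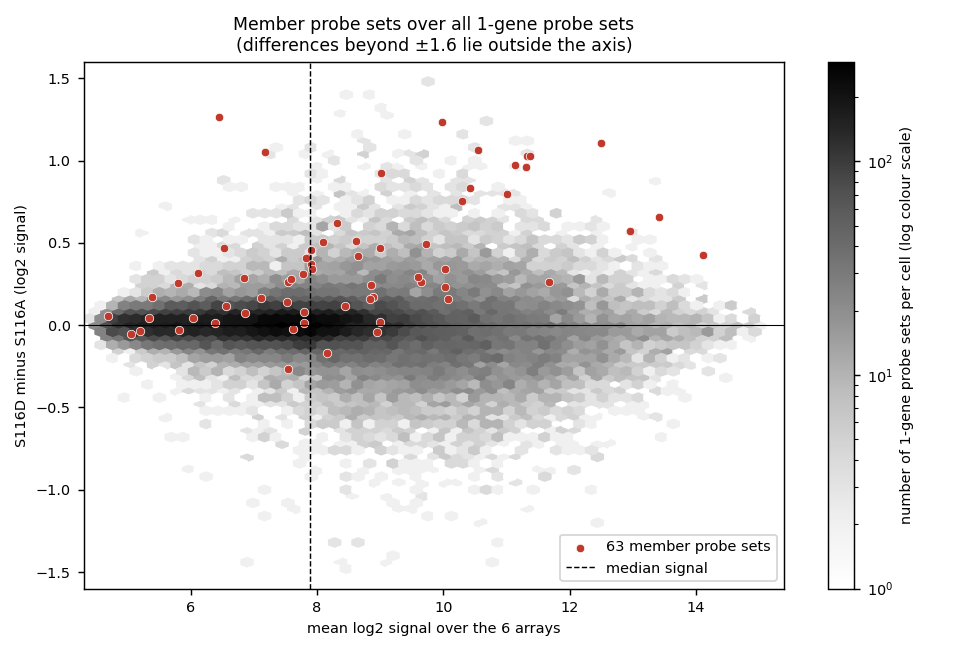
Difference (S116D minus S116A, log2 signal) against mean log2 signal over the 6 arrays for the 63 member probe sets (red) over all 41091 probe sets annotated to 1 gene (grey, darker where more lie). The dashed line is the median signal of 7.888; most red points to the right of it lie above 0.2, while many to the left lie near 0.

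**Figure D4:**
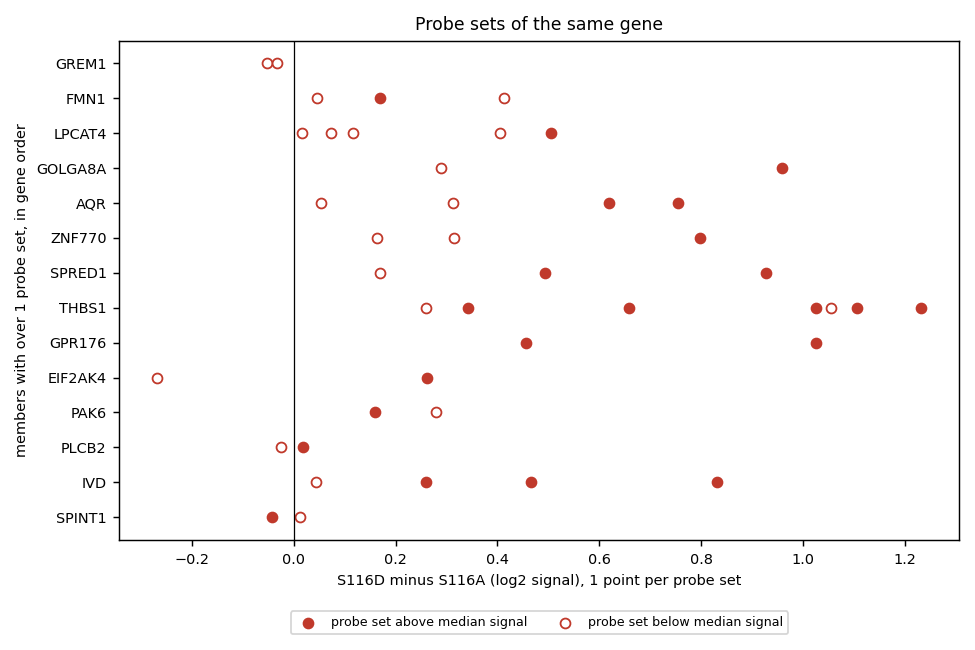
Difference (S116D minus S116A, log2 signal) of each probe set of the 14 members with more than 1, in gene order from the top, filled above and open below the median signal. For LPCAT4, AQR, ZNF770, SPRED1 and IVD the open points lie closer to 0 than the highest filled point, and the THBS1 points run from 0.26 to 1.23.

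Other measured genes lie between the members. They were not on the list, but they lie in a stretch whose members were chosen by this contrast, so they are no separate evidence. Of these 29 genes between the members, 10 were called higher and 0 lower, with a median of 0.12. Over all genes 6.79% were called higher and 5.39% lower, and of bright genes 8.79% and 7.36%. All 10 called between the members were among the 19 bright ones there, whose median was 0.36, and the 10 dim ones had 0.07. KATNBL1, related to katanin, had the largest difference of them, 1.14 ± 0.13 (SE), followed by DPH6, an enzyme of diphthamide synthesis (0.97), and FAM98B (0.86). EMC7 and EMC4, subunits of the membrane protein complex of the endoplasmic reticulum, differed by 0.74 and 0.72. CDIN1 (0.72), KNL1, a scaffold of the kinetochore (0.53), CCDC32 (0.48), GCHFR (0.43) and CCDC9B (0.36) made up the rest.

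Beside the stretch the sides were unlike. Of the 20 nearest measured genes before SCG5, 6 were called higher (ARHGAP11A 0.63, GOLGA8N 0.79, MTMR10 0.73, TJP1 0.34, NSMCE3 0.75 and APBA2 0.61) and 0 lower. Their 13 bright genes had a median of 0.34. Over all genes 6.79% were called higher and 5.39% lower. A second bright probe set of APBA2 differed by 0.07 and was not called. GOLGA8N is of the GOLGA8A family, so its value is uncertain for the single gene. Of the 20 nearest after SPINT1, NDUFAF1 alone was called (0.32), and the 18 bright genes had a median of 0.02. The lower edge of the list thus falls inside a run of positive differences, while the upper edge falls where they had ended. On chromosome 15 outside the stretch, 391 bright genes had a median of 0.00, with 35 called higher and 30 lower.

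Genes that start back to back, or overlap at their starts, did not always differ alike. Among measured genes of the stretch, 8 pairs start within 1000 bases of each other on opposite strands. DNAJC17 with ZFYVE19 and SPINT1-AS1 with SPINT1 overlap at their starts (-384 and -476 bases between starts). NOP10 differed by 0.98 and its partner NUTM1, a gene known from testis, by 0.08, with 179 bases between their starts. GPR176 differed by 1.03 and its divergent transcript GPR176-DT by -0.03. DPH6 and DPH6-DT showed 0.97 and 0.02. Both divergent transcripts were read by dim probe sets. That of NUTM1 was bright, with a mean of 9.584, but CD3E and PECAM1, markers of other cells, averaged 9.545 and 9.521. Signal over background could not be judged for NUTM1 or for the divergent transcripts. EMC7 and PGBD4 showed 0.74 and 0.37. For DNAJC17 with ZFYVE19 and for FSIP1 with LOC105370941 the smaller of each pair was 0.14 and 0.17, and for RYR3 with RYR3-DT and SPINT1 with SPINT1-AS1 all differences were near 0.

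A further question was whether genes elsewhere whose products work with those of the members differed as well. Of 76 such genes listed, 71 were measured. KNL1 lies in the stretch itself, so its call is no separate evidence. Of the other 70, 10 were called by limma (14.3%, against 12.2% of all genes), 1 higher and 9 lower, where 6.79% of all genes were called higher and 5.39% lower. All 10 were among the 63 bright partners (15.9%, against 16.2% of all bright genes), so the share called was near the background. Of the 70, 24 had an unadjusted p under 0.05, and the median difference was -0.06.

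In the signal recognition particle, SRPRA, a subunit of its receptor, rose by 0.59 ± 0.12 (SE) beside SRP14, at 12.49 ± 0.18 in S116D and 11.90 ± 0.19 in S116A (SD, n = 3 each, limma adjusted p = 0.016). The other 6 of this group did not pass, and SRP9, the direct partner of SRP14, differed by 0.03. Without S116A 1, SRPRA differed by 0.58 and was not called (limma adjusted p = 0.063). Of the 4 measured genes whose products work with NOP10, SHQ1, an assembly factor, fell by 0.41 (limma adjusted p = 0.0098), while GAR1 (-0.28) and NHP2 (0.06) did not pass. Among spindle checkpoint genes, BUB1 (0.28), TTK (0.31), BUB3 (0.07) and MAD2L1 (-0.19) did not pass beside BUB1B. In the fit over all probe sets, however, 1 of 6 BUB3 probe sets was called lower.

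Around EIF2AK4, the sister kinase gene EIF2AK3 fell by 0.55 ± 0.10 (SE, limma adjusted p = 0.010), and IMPACT, an inhibitor of GCN2, fell by 0.45 (limma adjusted p = 0.016). EIF2AK3 differed by -0.26 and was not called on the median of its probe sets (limma adjusted p = 0.095), and IMPACT was not called without S116D 2, S116D 3, S116A 1 or S116A 2, with differences from -0.46 to -0.41. Around SPRED1 and RASGRP1, HRAS fell by 0.45 (limma adjusted p = 0.010, but 0.056 and a difference of -0.41 without S116D 2), and SPRED2 (-0.67, limma adjusted p = 0.069) did not pass. BMP4, a ligand that GREM1 binds, fell to 8.49 ± 0.23 in S116D, against 9.84 ± 0.07 in S116A (SD, n = 3 each), by 1.35 with a limma adjusted p of 2.5e-04. CHST11, a sulphotransferase of chondroitin, fell by 0.72 and SPINT2, the relative of SPINT1, by 0.69 (limma adjusted p = 7.2e-04 and 7.6e-04). DYNLL2, a dynein light chain that binds BMF, fell by 0.40 (limma adjusted p = 0.0085), and ISY1, which joins AQR in the spliceosome, by 0.38 (limma adjusted p = 0.038). The call of ISY1 was lost in 6 alternatives, 4 of them with an array left out (S116D 2, S116D 3, S116A 1 or S116A 3, differences from -0.40 to -0.33), and its difference was -0.14 with unshared probe sets preferred (limma adjusted p = 0.37). By limma none of 5 partners of THBS1, 5 of IVD and 4 of MEIS2 was called, and unadjusted p-values were under 0.05 for 2, 1 and 0 of them. In the fit over all probe sets 1 of 7 CD47 probe sets was called lower, although its main one differed by 0.19, and 1 of 4 PBX2 probe sets was called higher. Among the uncalled partners that fit also called 2 of 7 BCL2L11 probe sets higher.

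**Figure D5:**
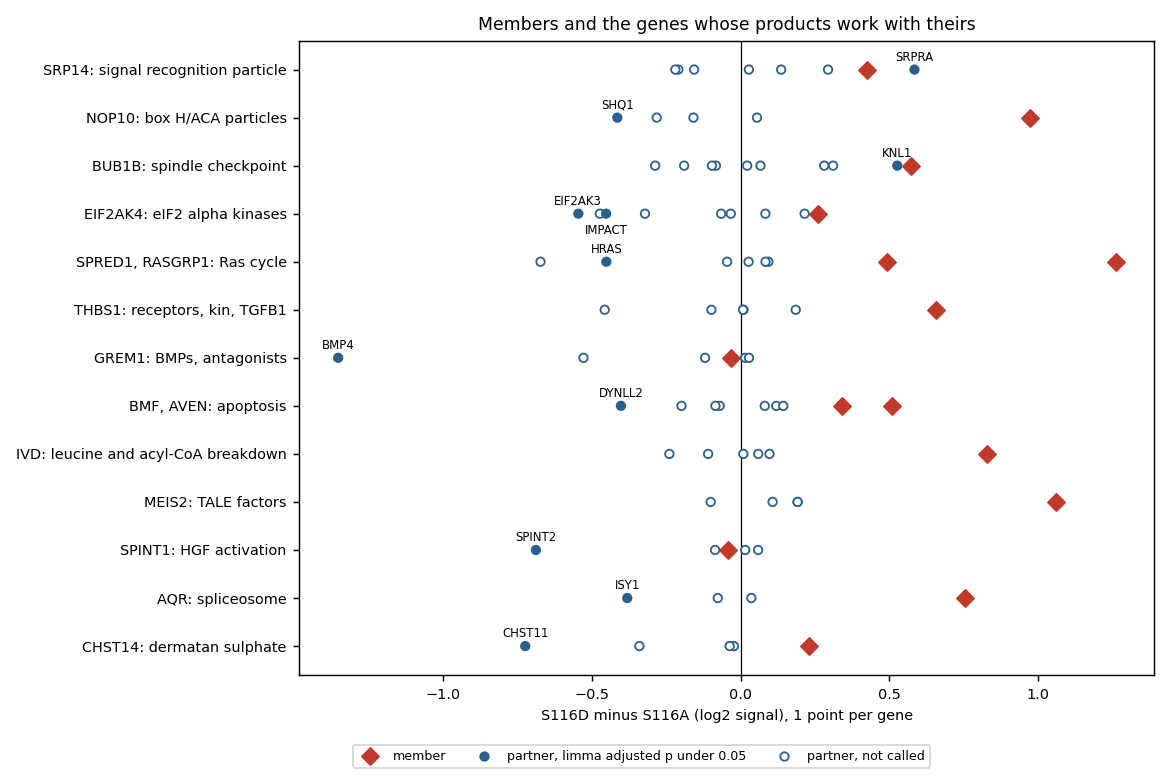
Difference (S116D minus S116A, log2 signal) of members (red diamonds) and of 71 genes whose products work with theirs (blue points, filled where limma's adjusted p is under 0.05), 1 row per group. Most diamonds lie right of all or nearly all points of their row; GREM1 and SPINT1 lie among them, and KNL1, which is in the stretch itself, lies beside BUB1B.

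The arrays read total RNA of cultured cells, so more RNA per cell and more cells carrying a transcript cannot be told apart. Calls of 5 members (SCG5, AVEN, LPCAT4, FSIP1 and DISP2) ended when 1 of the arrays was left out, and those of LPCAT4, ZNF770 and IVD under another choice of probe set, where the differences were 0.07, 0.16 and 0.26. The call of FSIP1 also ended under both other normalizations and without the intensity trend. With unshared probe sets preferred for all genes it ended too (limma adjusted p = 0.051). FSIP1 has only 1 probe set, so its difference stayed 0.258 there.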

How the data were processed

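The authors deposited a log2 signal for each probe set of 6 arrays. It was taken as log2 because all values lay between 4.336 and 15.33 and the array medians nearly coincided. MAS5 and RMA were used, per the submitters' processing notes, with versions and roles not given in the sources used. No detection calls were used, so no probe set was called absent. Precision is limited by 3 arrays per line.

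After removal of 62 controls, 54613 probe sets remained. The platform annotation names 1 gene for 41091, several for 1801 and none for 11721. Symbols were updated by gene identifier from RefSeq (GRCh38.p14), which also gave gene order. Each gene was read from its brightest probe set, by the average of the 6 arrays. S116D was set against S116A with limma (version 3.58.1, R 4.3.3), fitting lmFit with no covariate and then eBayes with its trend on signal. P-values were adjusted by Benjamini-Hochberg over 19777 genes (threshold 0.05), and a second fit covered all probe sets. The code was tested on simulated data. The members, partner genes and marker lists were chosen with earlier results of these data known. All members are named, with every array shown for bright ones and the 4 dim ones with the largest differences. RYR3 and the uncalled partners named were picked after their values were seen. Called partners and neighbours are named. Replicate numbers were not taken as pairs in the main fit. Deviations of same-numbered arrays correlated at 0.45, -0.0401 and 0.442, and those of unlike-numbered arrays between -0.545 and 0.312. These correlations do not settle whether the numbers pair the arrays. Alternatives were quantile normalization, median centring, bright probe sets alone, no trend, array weights, a replicate or array set block, 2 other rules for a gene's probe set, and each array left out.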

Additional observations from a re-analysis of the deposited data

How the results depend on the processing

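Under 15 alternatives the number of members called higher stayed between 14 and 21 (18 as reported) and the number called lower stayed 0. Of the 18, 11 were called in each alternative that tested them. With the replicate number as a block 21 members, 26 partner genes and 3890 genes in all were called, against 18, 11 and 2407 without it, and no call of a reported member or partner was lost; the numbers are not pairs by the labels. With the 2 array sets as a block 27 partners and 4409 genes were called, and with array weights 22 and 3681. With an array left out the whole-table count ranged from 1447 to 2593; leaving out S116D 2 gave 1451, S116D 3 gave 1528, S116A 1 gave 1447 and S116A 2 gave 1560. The median of the bright members was 0.363 on the median of each gene's probe sets and 0.373 to 0.451 with an array left out, against 0.422. With bright probe sets alone the 7 dim members dropped out. The median was then that of the bright members, 0.422, in place of 0.358 for all members. Of 165 values of called partners under the alternatives, 13 missed the threshold (EIF2AK3, HRAS, IMPACT, ISY1 and SRPRA, limma adjusted p 0.051 to 0.37) and 0 changed sign. The cause of the other shifts was not tested. Alternatives planned for linear values were not run. Signal over background could not be judged, which limits the dim members and bright ones of modest signal. CD3E and PECAM1, markers of other cells, averaged 9.545 and 9.521 here. ACTC1 (8.162), PPP1R14D (8.444), SPINT1 (8.943) and PLCB2 (8.996) lay lower, so their small differences may not reflect expressed genes. The same limit holds for FMN1 (8.879), PGBD4 (7.902), PAK6 (8.836) and ZFYVE19 (8.851). It also holds for LPCAT4 (8.094), BMF (8.615) and DISP2 (8.64), which were called higher.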

Other observations

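Probe sets that read GOLGA8A together with its near copy GOLGA8B were not used above. Of 3, one read 10.74, 10.33 and 10.43 in S116D, against 9.466, 10.12 and 9.515 in S116A, a difference of 0.80. Another read 10.50, 10.50 and 10.65 in S116D, against 9.232, 10.16 and 9.873 in S116A, also a difference of 0.80. The third differed by 0.13. On the first pair S116A 2 was the highest array of its line, as it was on the GOLGA8A probe set described above.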
